A study of Homo sapiens with 12 samples.

Results

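The transcripts that came down with HuR in unstressed pancreatic cancer cells were compared with those that came down with IgG from the same kind of lysate. MiaPaCa-2, a human pancreatic ductal adenocarcinoma line, received DMSO, the drug vehicle, and its cytoplasm was split off before the immunoprecipitation (IP). The comparison takes 4 of the 12 Clariom D arrays, 2 of HuR-IP and 2 of IgG-IP. The other arrays hold the same 2 IPs from cells given 10 µM olaparib or 1 µM gemcitabine for 16 h, 2 arrays each. They add to the estimate of spread behind every SE and p-value. Their values enter the text where the DMSO difference is set against a drug difference. All groups share the same cell line, growth medium and cytoplasmic fraction, and the labels number each array as a biological replicate without saying how it was prepared. Of 135750 transcript clusters on the array, 36176 carried exactly 1 gene symbol, and the brightest cluster of each gene gave the 33458 genes described here. None was left out for a dim signal.

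HuR, the product of ELAVL1, binds U-rich and AU-rich stretches of RNA, mostly in 3′ untranslated regions and introns. In the cytoplasm it is known for keeping short-lived mRNAs of growth and stress genes from decay and for changing their translation. An IP of the protein recovers the RNA it holds, but also RNA that sticks to beads and antibody, and abundant mRNAs make up much of that background. The IgG-IP shows this background, so a gene low in HuR-IP relative to IgG-IP is not thereby known to be unbound. Since the arrays are scaled to each other, every difference is relative to the other RNAs of the same IP, and a higher level in the cell cannot be told apart from tighter binding without an array of the lysate.

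The HuR-IP arrays were unlike each other. Over all genes, HuR-IP replicate 2 correlated at 0.965 and 0.966 with the IgG-IP arrays, and at 0.936 with HuR-IP replicate 1. HuR-IP replicate 1 correlated at 0.927 and 0.908 with IgG-IP replicates 1 and 2, whose own correlation was 0.968. On the first principal component of the 9139 genes with a mean log2 signal above 6, HuR-IP replicate 1 scored -107 and replicate 2 scored 27.6, against 80.3 and 73.5 for IgG-IP. The gemcitabine HuR-IP array numbered 2 lay apart in the same way, at 20.8 against -138 for its partner. What set these arrays apart was not tested, so the medians of the main lists are also given within the arrays of 1 number. The 612 negative control features had medians of 3.97 and 3.73 in HuR-IP and 4.0 and 3.97 in IgG-IP, on the log2 scale of the deposited values. Their 95th percentile was 6.01 to 6.65 over the 4 arrays.

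Few genes passed an adjusted p under 0.05 (limma, Benjamini-Hochberg over all genes), 167 in all or 0.499% of those tested. HuR-IP exceeded IgG-IP in 7 (0.0209%) and fell short of it in 160 (0.478%). With only the 4 DMSO arrays in the model, 0 genes passed in either direction. The difference of the mean log2 signals, HuR-IP minus IgG-IP, is called the log2 ratio here. All 7 higher genes are protein-coding. They span roles in membrane traffic, protein lipidation, folding and microRNA silencing, and none is a ribosomal or mitochondrial gene. At an unadjusted p under 0.05, 599 genes were higher (1.79%) and 1932 lower (5.77%), but 1235 and 1480 with cyclic loess, 932 and 1188 with arrays centred on brighter genes, and 1773 and 1667 without HuR-IP replicate 2. The 1.79% that were higher was no more than such a threshold passes in that direction when nothing differs. Arrays of the same number departed from their group means together, and with that number as a block 85 genes were higher (0.254%) and 395 lower (1.18%) at the adjusted p, among them all 167 of the fit without it. A call that only the block gave is named as such. The calls at the adjusted p depended on single arrays: without HuR-IP replicate 1, 0 genes were higher and 21 lower, and without HuR-IP replicate 2, 0 and 1. Without IgG-IP replicate 1, 0 genes passed in either direction, and without IgG-IP replicate 2, 0 were higher and 1 lower.

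TMED2, a cargo receptor of the p24 family that cycles between endoplasmic reticulum and Golgi, had log2 signals of 19.31 and 18.82 in HuR-IP against 16.43 and 16.32 in IgG-IP. Its log2 ratio was 2.69 (SE 0.28, adjusted p = 0.0104, limma, n = 2 each), a 6.45-fold excess. TNRC6A, the GW182 scaffold that links Argonaute to the deadenylases, had 11.11 and 10.87 in HuR-IP against 8.53 and 8.19 in IgG-IP. It rose by a log2 ratio of 2.63 (SE 0.27, adjusted p = 0.0104). In both genes the HuR-IP arrays lay close together and well above IgG-IP, including the replicate 2 array that otherwise resembled IgG-IP.

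VKORC1L1, a vitamin K epoxide reductase of the endoplasmic reticulum, had signals of 14.54 and 14.42 in HuR-IP against 11.95 and 12.19 in IgG-IP, and rose by 2.41 (SE 0.27, adjusted p = 0.0142). CDIN1, a gene mutated in congenital dyserythropoietic anaemia, had 12.32 and 11.91 in HuR-IP against 9.71 and 9.69 in IgG-IP, and also rose by 2.41 (SE 0.31, adjusted p = 0.0210). CLDN11, a tight junction claudin, had 19.53 and 18.78 in HuR-IP against 16.99 and 16.84 in IgG-IP, and rose by 2.24 (SE 0.31, adjusted p = 0.0233). Its replicate 1 value lay near the top of that array, 19.88, where signals can saturate. ZDHHC20, a palmitoyltransferase, had 14.43 and 14.26 in HuR-IP against 12.27 and 12.22 in IgG-IP, and rose by 2.10 (SE 0.33, adjusted p = 0.0429). HSPA13, an HSP70-family ATPase of microsomes, had 10.37 and 10.57 in HuR-IP against 8.95 and 9.06 in IgG-IP, and rose by 1.46 (SE 0.23, adjusted p = 0.0429). What these 7 have in common is a small gap between replicates, and their differences are not the largest. None of the 7 kept an adjusted p under 0.05 when any 1 of the 4 arrays was left out, and with a trended and robust prior the smallest adjusted p of any gene was 0.178.

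**Figure D1:**
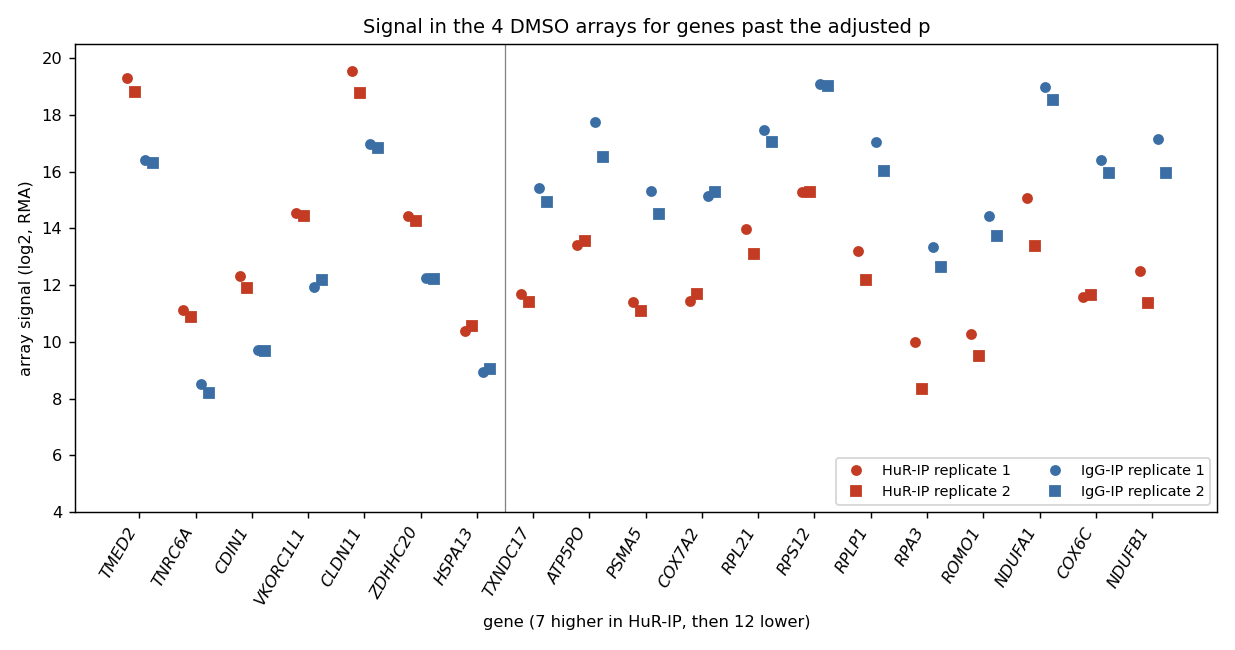
Log2 array signal (vertical axis) in the 2 HuR-IP arrays (red) and the 2 IgG-IP arrays (blue) from DMSO cells, with circles for replicate 1 and squares for replicate 2. The 7 genes to the left of the line lie higher in both HuR-IP arrays, by 1.46 for HSPA13 to 2.69 for TMED2, and the 12 to the right lie lower, by up to 4.62 for NDUFB1.

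The largest excess in HuR-IP lay elsewhere, in genes that replicate 1 enriched far more than replicate 2. TMED4, another p24 family member, had signals of 16.26 and 11.85 in HuR-IP against 9.05 and 9.5 in IgG-IP. Its log2 ratio of 4.78 (SE 1.39) had an unadjusted p of 0.00818 and an adjusted p of 0.318 by limma. PDGFA, a growth factor subunit, had 12.64 and 7.23 in HuR-IP against 5.62 and 4.82 in IgG-IP, a log2 ratio of 4.72 (SE 2.03, adjusted p = 0.648). RETREG3, a receptor for autophagy of the endoplasmic reticulum, had 17.86 and 14.09 in HuR-IP against 11.83 and 12.17 in IgG-IP, a log2 ratio of 3.97 (SE 1.21, adjusted p = 0.355). PTP4A1, a membrane-anchored phosphatase, had 18.16 and 14.89 in HuR-IP against 12.89 and 12.07 in IgG-IP, a log2 ratio of 4.04 (SE 1.60, adjusted p = 0.586). In each of these genes both HuR-IP arrays exceeded both IgG-IP arrays, as the rule for naming them required, and the HuR-IP arrays lay several log2 units apart. With the array number as a block, PTP4A1 passed (adjusted p = 0.0217) and TMED4 did not (0.155). The other 6 of the 10 highest under that rule were DPYSL2, a microtubule-binding protein of axons, SLC48A1, a haem transporter, TCF7L2, the Wnt pathway transcription factor, PRND, a prion-like protein, NUDT19, a coenzyme A hydrolase, and the microRNA locus MIR3143. Their log2 ratios ran from 3.98 for MIR3143 to 4.58 for DPYSL2. DPYSL2 had 16.73 and 11.37 in HuR-IP against 10.48 and 8.46 in IgG-IP.

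Differences between arrays of the same number show this gap across the whole table. Among these 9139 brighter genes the difference of HuR-IP from IgG-IP had an SD of 2.02 for replicate 1 and 1.12 for replicate 2. The differences correlated across genes at a Pearson r of 0.41, where genes are not independent replicates, and agreed in sign for 60.3% of them. Over 1 log2 unit higher in HuR-IP were 1992 genes by replicate 1, 1717 by replicate 2 and 677 by both. Over 1 log2 unit lower were 3973 by replicate 1, 1400 by replicate 2 and 1050 by both. The balance depended on the scaling: with cyclic loess 2819 genes were over 1 unit higher and 2390 lower by replicate 1, and 997 higher and 726 lower by both. The arrays contradicted each other for 480 genes that were over 1 unit lower by replicate 1 and over 1 unit higher by replicate 2, and for 66 genes the other way round. The median difference over these genes was -0.70 by replicate 1 and 0.15 by replicate 2, and with cyclic loess it was 0.00 and 0.22.

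Genes that were high in both pairs can be ranked by the smaller of their differences. MOB3A, a kinase activator of the MOB family, led the protein-coding genes with differences of 5.61 and 3.12, from signals of 14.38 and 8.50 in HuR-IP against 8.77 and 5.38 in IgG-IP. CHRAC1, a histone-fold subunit of a chromatin remodelling complex, differed by 4.70 and 3.11. NXT2, a cofactor of mRNA export, differed by 4.24 and 3.06, and CTTN, the actin-binding cortactin, by 4.29 and 3.02. RCC2, a chromosomal passenger protein, differed by 4.86 and 3.01, on a cluster named as unmapped, whose locus is not known here. ARPP19, an inhibitor of the mitotic phosphatase PP2A, differed by 4.29 and 2.73, and DPYSL2 and PTP4A1 completed this group. Except for DPYSL2 and PTP4A1 these genes missed even the unadjusted p, and in all 8 IgG-IP replicate 1 lay above IgG-IP replicate 2, as HuR-IP replicate 1 lay above HuR-IP replicate 2. With the block, NXT2 (adjusted p = 0.00721), RCC2 (0.0330), CHRAC1 (0.0362) and PTP4A1 passed. The groups overlapped for MOB3A and CTTN, where HuR-IP replicate 2 lay below IgG-IP replicate 1.

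**Figure D2:**
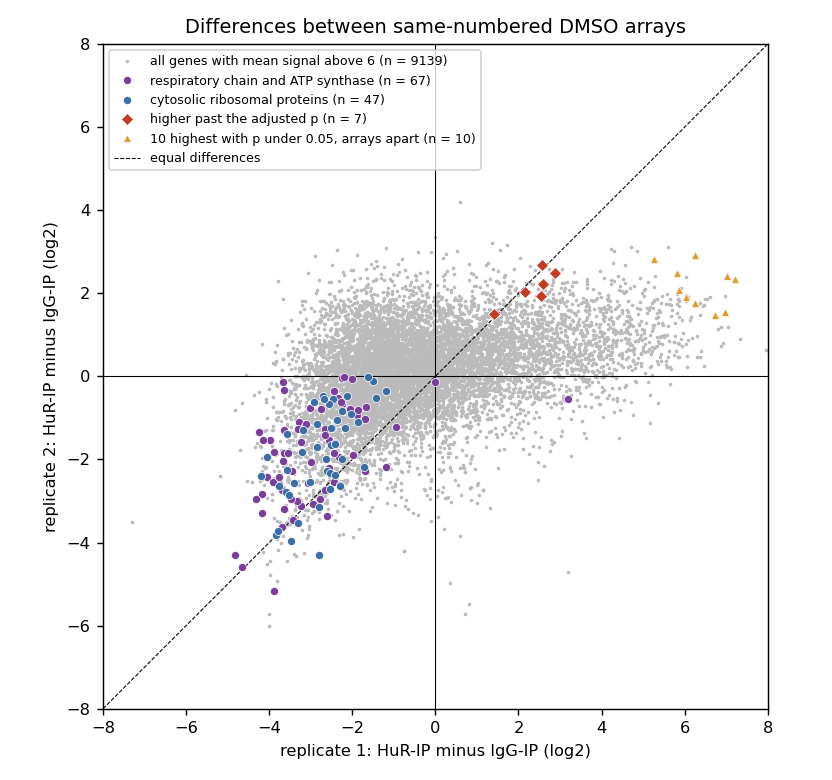
Difference of HuR-IP from IgG-IP (log2) between the DMSO arrays numbered 1 (horizontal axis) and numbered 2 (vertical axis), 1 point per gene with a mean signal above 6. The 7 genes past the adjusted p (red) lie near the line of equal differences, the 10 highest among genes with an unadjusted p under 0.05 and both HuR-IP arrays above both IgG-IP arrays (orange) lie far to its right, and nearly all ribosomal protein (blue) and respiratory chain genes (purple) lie below 0 in both.

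Among protein-coding genes, many of those lower in HuR-IP belonged to large machines of the cell. Of the 73 protein-coding genes called lower, 43 belonged to 7 lists: the small and large cytosolic ribosomal subunits, mitochondrial ribosomal proteins, the nuclear-encoded respiratory chain with ATP synthase, mitochondrial import, the proteasome and the core spliceosome. The other 30 were in none of them. The lists were drawn up with earlier results of these arrays known, so their counts describe the genes and are no independent evidence.

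Respiratory chain and ATP synthase genes were the lowest list, with a median log2 ratio of -2.43 over 68 measured of 78, against -0.09 over all genes. Of these 68, 17 fell and 0 rose at the adjusted p (27 fell with the block), and 52 were lower and 0 higher at an unadjusted p under 0.05. In 63 of them both HuR-IP arrays lay below both IgG-IP arrays, an ordering seen in 23.9% of all genes. By array number the median was -3.05 for replicate 1 and -1.84 for replicate 2. The -0.09 over all genes takes in dim ones. Protein-coding genes with a mean signal above 6 had a median of -0.21. The quintile of them brightest in IgG-IP, a level that enters the ratio, had -0.83, with -1.64 and -0.13 by array number. COX6C, a subunit of cytochrome c oxidase, had signals of 11.59 and 11.64 in HuR-IP against 16.42 and 15.94 in IgG-IP, and fell by 4.56 on the log2 scale (SE 0.29, adjusted p = 0.00469, limma), a 23.7-fold deficit. NDUFB1, an accessory subunit of complex I, had 12.51 and 11.38 in HuR-IP against 17.16 and 15.97 in IgG-IP, and fell by 4.62 (SE 0.57, adjusted p = 0.0181). Both subunits were bright in IgG-IP and over 4 log2 units dimmer in each HuR-IP array of the same number.

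By complex, the counts and medians differed. Complex I had 10 of 33 genes lower at the adjusted p and a median of -2.49, complex III 2 of 8 and -2.36, complex IV 3 of 9 and -2.76, and ATP synthase 2 of 15 and -1.99, the last with -3.23 and -1.28 by array number. Complex II had 0 of 3 at the adjusted p, 1 of 3 at the unadjusted p, and a median of -1.34. NDUFA1, also of complex I, had 15.08 and 13.36 in HuR-IP against 18.97 and 18.53 in IgG-IP, and fell by 4.53 (SE 0.53, adjusted p = 0.0159). COX7A2 of complex IV had 11.45 and 11.69 in HuR-IP against 15.15 and 15.30 in IgG-IP, and fell by 3.66 (SE 0.59, adjusted p = 0.0445). ATP5PO, which joins the ATP synthase stalk to its head, had 13.41 and 13.56 in HuR-IP against 17.74 and 16.52 in IgG-IP, and fell by 3.64 (SE 0.51, adjusted p = 0.0249). Neighbouring mitochondrial lists shared the direction with smaller medians, -1.55 for 76 mitochondrial ribosomal proteins and -1.45 for 30 import proteins. By array number they were -1.87 and -1.0, and -2.48 and -0.68, and without IgG-IP replicate 1 the first was -0.93. Of the ribosomal proteins 3 fell (16 with the block), and of the import proteins 1 (5 with the block). The import gene was ROMO1, an inner membrane protein tied to reactive oxygen, with 10.29 and 9.51 in HuR-IP against 14.44 and 13.73 in IgG-IP, a fall of 4.18 (SE 0.38, adjusted p = 0.00724). The 13 mRNAs encoded in mitochondrial DNA were not analysed here.

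Cytosolic ribosomal proteins were lower nearly throughout. Of 51 measured of 80 listed, 17 fell and 0 rose at the adjusted p, and both HuR-IP arrays lay below both IgG-IP arrays in 49. The small subunit had 8 of these calls (13 with the block) and the large subunit 9 (10 with the block). The median was -2.21 for the 22 small subunit genes and -2.09 for the 29 large subunit genes. By array number the medians were -2.61 and -1.79 for the small subunit and -2.54 and -1.39 for the large. RPS12 had signals of 15.29 and 15.28 in HuR-IP against 19.08 and 19.01 in IgG-IP, and fell by 3.76 (SE 0.26, adjusted p = 0.00469). RPLP1, an acidic stalk protein, had 13.22 and 12.19 in HuR-IP against 17.05 and 16.01 in IgG-IP, and fell by 3.83 (SE 0.56, adjusted p = 0.0294). RPL21 had 13.97 and 13.10 in HuR-IP against 17.45 and 17.06 in IgG-IP, and fell by 3.72 (SE 0.39, adjusted p = 0.0105). The cluster taken for RPL21 is named for a chromosome other than the gene's own, so its signal cannot be assigned to that locus. Several of these signals in IgG-IP neared the top of the arrays, 19.90 and 19.48, where signals can saturate.

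Ribosomal protein mRNAs carry a run of pyrimidines at their 5′ end, the TOP motif, through which their translation is controlled. A C followed by 4 pyrimidines at the RefSeq start (GRCh38.p14, given strand only) was found in 33 of 46 ribosomal protein genes with a start in the table (71.7%), against 4.49% of 14287 protein-coding genes. Of the other protein-coding genes called lower, 1 of 54 had it (1.85%), too few to set apart from that share. Among genes lower at an unadjusted p under 0.05 that are not ribosomal proteins, 51 of 810 had it (6.30%). Among those higher at that threshold, 13 of 328 had it (3.96%). Among 307 further genes with this start and a mean signal above 6, the median log2 ratio was -0.27, with -0.70 and 0.12 by array number. Protein-coding genes of that brightness as a whole had a median of -0.21. Translation factors, several of which carry the motif (9 of 30), had a median of -1.02 over 38 genes, and 0 of them passed the adjusted p (with the block 1, EIF1, fell). By array number the median was -2.08 and -0.32, and it was -0.59 without IgG-IP replicate 1, -1.59 without IgG-IP replicate 2 and -0.62 with cyclic loess.

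Proteasome subunits had a median of -1.89 over 30 genes, of which 2 fell (6 with the block) and 0 rose. PSMA5, a subunit of the alpha ring, had 11.42 and 11.10 in HuR-IP against 15.32 and 14.50 in IgG-IP, and fell by 3.65 (SE 0.56, adjusted p = 0.0374). The proteasome median was -2.69 by replicate 1 and -0.82 by replicate 2, and -0.94 without IgG-IP replicate 1. Core spliceosome proteins had a median of -1.12 over 45 genes, of which 3 fell (5 with the block): SF3B5, SNRPD2 and SNRPC. Their medians by array number were -1.89 and -0.27, and the median was -0.56 without IgG-IP replicate 1, -1.70 without IgG-IP replicate 2 and -0.73 with cyclic loess. SNRPE, an Sm protein, had differences of -3.57 and -3.57 by array number and an adjusted p of 0.0675 (0.00267 with the block). TXNDC17, a thioredoxin-related reductase outside the lists, had 11.70 and 11.40 in HuR-IP against 15.44 and 14.92 in IgG-IP, and fell by 3.63 (SE 0.35, adjusted p = 0.00872). RAB13, a small GTPase named here after its value was seen, had the lowest log2 ratio of any gene, -5.40 (SE 1.31), with an adjusted p of 0.203.

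**Figure D3:**
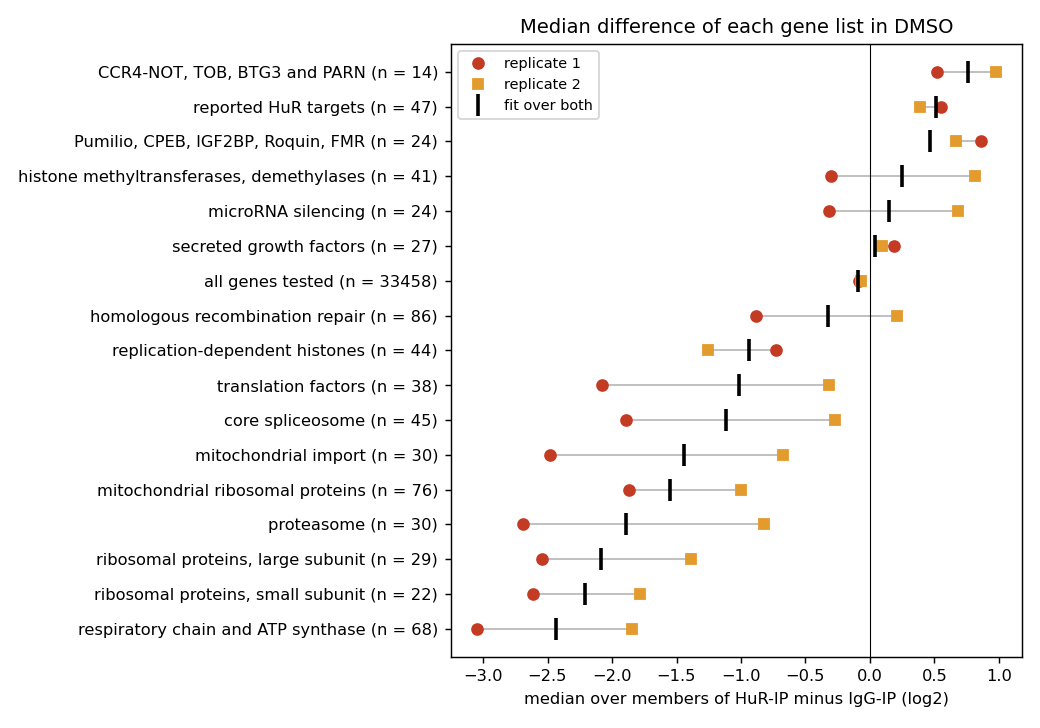
Median difference of HuR-IP from IgG-IP (log2, horizontal axis) over the measured members of each gene list, between arrays numbered 1 (circles) and 2 (squares), with a bar for the fit over both. The respiratory chain list lies lowest, at -3.05 and -1.84, and the medians of all genes lie at -0.08 and -0.07. Protein-coding genes with a mean signal above 6, not drawn, had -0.80 and 0.27.

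Clusters named for pseudogenes made up most of the remaining calls. Of the 160 genes lower in HuR-IP, 85 were pseudogenes, 55 of them named for ribosomal proteins and 19 for 7SK, the RNA that holds the elongation factor P-TEFb inactive. RN7SKP137, the lowest, had signals of 5.6 and 4.42 in HuR-IP against 9.60 and 10.44 in IgG-IP, and fell by 5.01 (SE 0.67, adjusted p = 0.0231). RN7SKP22 had 11.11 and 11.26 in HuR-IP against 15.15 and 15.78 in IgG-IP, and fell by 4.28 (SE 0.59, adjusted p = 0.0234). Copies of 7SK and of ribosomal protein genes can be much alike, so these clusters cannot be assigned to the locus they are named for. Over all 280 measured 7SK pseudogenes the median was -0.60, and over 966 ribosomal protein pseudogenes -0.69. RN7SL2, a 7SL RNA of the signal recognition particle, had 15.62 and 13.38 in HuR-IP against 14.81 and 18.86 in IgG-IP (adjusted p = 0.876), a spread set by IgG-IP replicate 2. RNY1, a Y RNA, had 10.74 and 7.39 in HuR-IP against 12.58 and 11.07 in IgG-IP (adjusted p = 0.706). Replication-dependent histone mRNAs, which end in a stem-loop in place of a poly(A) tail, had a median of -0.94 over 44 genes, with 0 past the adjusted p, 11 lower and 0 higher at the unadjusted p, and medians of -0.73 and -1.26 by array number. With the block 1 of them fell, H4C1, and the list's median was -1.47 without HuR-IP replicate 1 and -0.54 without HuR-IP replicate 2.

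Of 1470 microRNA loci tested, 1 passed the adjusted p, MIR4426, and of the 137 with a mean signal above 6, 7 were higher and 3 lower at an unadjusted p under 0.05. Mature sequences (RefSeq, GRCh38.p14) of 5 of these 10 are shown, those with an entry and the highest mean signal over the 12 arrays, to tell what the array clusters are named for, with the seed, bases 2 to 8, in capitals. No 2 of these 5 share a seed.
hsa-miR-4426 (chr1:192716333-192716349, + strand): gAAGAUGGacguacuuu
hsa-miR-3654 (chr7:133034860-133034878, - strand): gACUGGACaagcugaggaa
hsa-miR-3198 (chr22:17764190-17764211, - strand): gUGGAGUCcuggggaauggaga
hsa-miR-3135a (chr3:20137574-20137595, + strand): uGCCUAGGcugagacugcagug
hsa-miR-548ac (chr1:116560038-116560059, - strand): cAAAAACCggcaauuacuuuug

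MIR4426 lies inside RPS27AP5, a ribosomal protein pseudogene. Its signals were 13.92 and 13.33 in HuR-IP against 16.80 and 16.38 in IgG-IP, a fall of 2.97 (SE 0.40, adjusted p = 0.0233). MIR3654 lies within CHCHD3, a gene of mitochondrial cristae, and had 14.87 and 16.77 in HuR-IP against 18.35 and 17.98 in IgG-IP (log2 ratio -2.34, adjusted p = 0.349), beside -1.74 for CHCHD3 itself. Among the higher loci, MIR3198-1, which lies within BID, a BH3-only protein of apoptosis, had 13.11 and 10.96 in HuR-IP against 9.80 and 8.69 in IgG-IP (log2 ratio 2.79, adjusted p = 0.354, and 0.00724 with the block), beside -0.26 for BID. MIR3135A, inside the acetyltransferase gene KAT2B, had 14.48 and 13.34 in HuR-IP against 11.08 and 12.20 in IgG-IP (log2 ratio 2.27, adjusted p = 0.389), beside -0.20 for KAT2B. MIR548AC, inside the adhesion gene CD58, had 8.65 and 6.65 in HuR-IP against 5.85 and 5.99 in IgG-IP (log2 ratio 1.73, adjusted p = 0.516). MIR548AA2, with no mature entry, had 9.82 and 8.43 in HuR-IP against 6.91 and 6.61 in IgG-IP (log2 ratio 2.37, adjusted p = 0.149). Over the 137 brighter loci both HuR-IP arrays lay above both IgG-IP arrays in 35 and below in 5, where 12.7% and 23.9% of all genes did so. By array number their median was 0.25 and -0.02, with 99 and 67 of the 137 above 0. The labelling kit also copies long RNA, so mature microRNA, hairpin and host transcript cannot be told apart on these clusters.

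Genomic span, introns included, which no naming rule used, went with the direction of the difference. Among 7114 protein-coding genes with a mean signal above 6, those in the shortest quintile of genomic span (0.276 to 11.7 kb, RefSeq GRCh38.p14) had a median log2 ratio of -0.79, and those in the longest quintile (91.2 to 2474 kb) one of 0.01. By array number the medians were -1.31 and -0.31 in the shortest quintile and -0.57 and 0.61 in the longest, so the first pair set all lengths lower and the second pair set long genes higher, but both ranked short genes lowest. At an unadjusted p under 0.05, 22.8% of the shortest genes were lower and 2.32% higher, against 3.16% lower and 6.68% higher among the longest. The 331 genes higher at that threshold had a median span of 49.6 kb and the 711 lower ones 12.9 kb, against 33.9 kb overall. With the 7 lists named above left out, the shortest quintile still had a median of -0.65 and the longest one of 0.01. By IgG-IP level, which enters the ratio itself, the median was 0.20 in the dimmest quintile of these genes and -0.83 in the brightest. Median IgG-IP signals were 9.96 and 9.20 in the shortest span quintile and 9.16 and 8.46 in the longest. Whether span went with the difference apart from level was not tested.

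**Figure D4:**
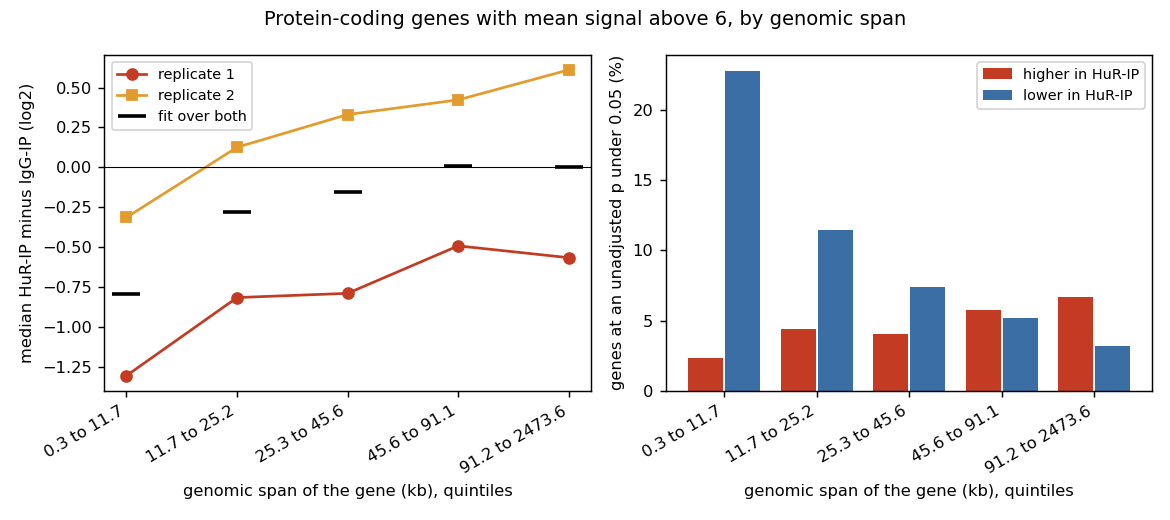
Protein-coding genes with a mean signal above 6 in quintiles of genomic span (kb). On the left, the median difference of HuR-IP from IgG-IP (log2) is higher in the longest than in the shortest quintile in both replicates, and on the right, the share lower at an unadjusted p under 0.05 is 22.8% in the shortest and 3.16% in the longest quintile.

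Proteins that act on mRNA themselves were next. Of 24 genes of the microRNA silencing machinery, TNRC6A rose and 0 fell at the adjusted p. Its paralogs TNRC6B and TNRC6C had log2 ratios of 1.65 (SE 0.56) and 0.87 (SE 0.36) at adjusted p-values of 0.447 and 0.616, with both HuR-IP arrays above both IgG-IP arrays in each. AGO2, the slicing Argonaute, had 12.89 and 11.73 in HuR-IP against 10.53 and 9.51 in IgG-IP, a log2 ratio of 2.29 (SE 1.01, adjusted p = 0.662, and 0.0166 with the block). These 4 were named for the size of their statistic, and the list as a whole ran down to -1.34. Its median was 0.15, with -0.32 and 0.69 by array number, and turned to -0.19 without IgG-IP replicate 2. Protein-coding genes with a mean signal above 6 also changed sign, at -0.80 and 0.27 by array number. Of 14 CCR4-NOT, TOB, BTG3 and PARN genes of deadenylation, 0 passed with or without the block, and the median was 0.76, with 0.52 and 0.98 by array number, and 0.15 without IgG-IP replicate 2. CNOT9, a subunit that contacts GW182 proteins, had 18.83 and 15.56 in HuR-IP against 14.35 and 13.95 in IgG-IP, a log2 ratio of 3.04 (SE 1.16, adjusted p = 0.550). Of 24 Pumilio, CPEB, IGF2BP, Roquin and FMR genes, 0 passed (with the block 1, MEX3C, rose) and the median was 0.46, with 0.86 and 0.67 by array number, and -0.03 without HuR-IP replicate 1. IGF2BP3, an mRNA-stabilizing protein of fetal and cancer cells, had 16.62 and 13.83 in HuR-IP against 12.84 and 11.72 in IgG-IP, a log2 ratio of 2.95 (SE 0.98, adjusted p = 0.432).

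Of 47 measured mRNAs described elsewhere as HuR targets, 0 passed the adjusted p in DMSO in either direction. Of all genes 0.0209% were higher and 0.478% lower, so a count of 0 does not set these 47 apart. With the block 1 rose, VEGFA, the angiogenic growth factor, which had 14.84 and 11.56 in HuR-IP against 11.60 and 9.58 in IgG-IP (log2 ratio 2.61, adjusted p = 0.0476 with the block and 0.772 without it). Its groups overlapped, with HuR-IP replicate 2 below IgG-IP replicate 1. The list's log2 ratios ran from -2.28 to 4.67. At an unadjusted p under 0.05, 1 was higher and 1 lower, where 1.79% and 5.77% of all genes were. The higher was IGF1R, the insulin-like growth factor receptor, with 15.63 and 13.77 in HuR-IP against 10.36 and 11.95 in IgG-IP, a log2 ratio of 3.55 (SE 1.20, adjusted p = 0.445). The lower was CCNB1, the mitotic cyclin, with 12.74 and 13.64 in HuR-IP against 15.81 and 15.12 in IgG-IP, a log2 ratio of -2.28 (SE 0.60, adjusted p = 0.253). In 10 of the 47 both HuR-IP arrays lay above both IgG-IP arrays and in 8 below, where 12.7% and 23.9% of all genes did so. The list's median was 0.51, with 0.55 and 0.39 by array number, and it was -0.00 without HuR-IP replicate 1 and 0.18 without IgG-IP replicate 2. ELAVL1 mRNA, known to be bound by its own protein, had 19.61 and 18.06 in HuR-IP against 18.19 and 17.69 in IgG-IP, a log2 ratio of 0.90 (SE 0.55, adjusted p = 0.809), and the signals neared the top of the arrays.

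The homologous recombination repair list, the study's question, had 86 of 97 genes measured, and in DMSO 0 rose and 1 fell. That gene was RPA3, a subunit of replication protein A, with 9.99 and 8.33 in HuR-IP against 13.35 and 12.65 in IgG-IP, a fall of 3.84 (SE 0.53, adjusted p = 0.0234). PCNA, the sliding clamp, had 13.32 and 12.77 in HuR-IP against 15.92 and 14.53 in IgG-IP, a log2 ratio of -2.18 (SE 0.64, adjusted p = 0.325, and 0.0229 with the block). In the other direction stood PPP4R2, a phosphatase subunit, with 8.66 and 7.04 in HuR-IP against 5.99 and 6.07 in IgG-IP, a log2 ratio of 1.82 (SE 0.57, adjusted p = 0.377). It was named for its statistic, and the list's log2 ratios ran from -3.84 to 4.22. With the block 1 gene of the list rose, XRCC2, with 15.92 and 13.59 in HuR-IP against 12.49 and 11.87 in IgG-IP (log2 ratio 2.57, adjusted p = 0.0406 with the block and 0.619 without it). BARD1, the partner of BRCA1, had 10.62 and 8.69 in HuR-IP against 7.85 and 7.95 in IgG-IP. Its log2 ratio was 1.76 (SE 0.79, adjusted p = 0.680, and 0.422 with the block). Both HuR-IP arrays lay above IgG-IP for BARD1, most clearly replicate 1. The median of the list was -0.33, with -0.88 and 0.21 by array number. Protein-coding genes with a mean signal above 6 had a median of -0.21, with -0.80 and 0.27 by array number. The change of sign between the pairs was therefore not particular to the list. The list's median was 0.13 without IgG-IP replicate 1 and -0.85 without IgG-IP replicate 2.

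Other lists had 1 gene past the adjusted p between them, TMED2. Among p24 receptors and COPII and COPI coat genes, TMED2 was the 1 that passed, and SAR1B, a GTPase that starts COPII vesicles, had 14.58 and 13.76 in HuR-IP against 12.17 and 12.20 in IgG-IP (log2 ratio 1.98, adjusted p = 0.149). The list's median was -0.16, but 0.29 with cyclic loess. Histone lysine methyltransferases and demethylases had 3 of 41 higher and 0 lower at the unadjusted p, led by SETD5 with 11.33 and 10.44 in HuR-IP against 8.61 and 8.61 in IgG-IP (log2 ratio 2.28, adjusted p = 0.127). Their median was 0.25, with -0.30 and 0.81 by array number and -0.16 without IgG-IP replicate 2. The sign also differed between the pairs for protein-coding genes with a mean signal above 6, at -0.80 and 0.27. Receptor tyrosine kinases, secreted growth factors, F-box proteins and ubiquitin-conjugating enzymes had medians of -0.08, 0.04, 0.10 and 0.36, with 0 genes past the adjusted p in each. None of these 4 medians kept its sign throughout: the first was 0.12 with arrays centred on brighter genes, the second -0.03 and the third -0.23 without HuR-IP replicate 1, and the fourth -0.53 without IgG-IP replicate 2. Keratin, vimentin, actin and tubulin mRNAs had a median of -0.96 (-1.79 and -0.19 by array number, and -0.45 without IgG-IP replicate 1). Their log2 ratios ran from -2.80 to 4.67, and 6 of 28 were lower and 0 higher at the unadjusted p. Among the lower was KRT18, a keratin of simple epithelia, at 13.41 and 13.71 in HuR-IP against 16.12 and 15.37 in IgG-IP (adjusted p = 0.236). Glycolytic enzymes had 3 of 19 lower at that threshold, TPI1, ENO1 and ALDOA, and a median of -0.47, which was -0.00 with cyclic loess and 0.17 without IgG-IP replicate 1. TPI1 passed with the block (adjusted p = 0.0331).

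As markers of the labelled carcinoma line, KRT18 and vimentin (VIM) were bright, VIM at 12.74 and 12.65 in HuR-IP against 14.24 and 12.92 in IgG-IP. EPCAM stayed near the negative controls, at 3.10 and 3.21 in HuR-IP against 3.51 and 3.34 in IgG-IP. Of 9 acinar, 6 endocrine, 10 immune, 8 endothelial and 5 erythroid marker genes measured, 0 passed either p in DMSO, and their list medians lay between -0.33 and 0.06. The erythroid list included HBA2 and HBB, whose signals of 3.49 to 5.10 lay within the range of the negative controls.

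The DMSO calls were then followed in the drug-treated arrays, which have IgG-IP arrays of their own but share with DMSO the estimate of spread. All 7 higher genes were above IgG-IP in both same-numbered pairs with olaparib and with gemcitabine, with medians of 2.56 and 2.52 against 2.41 in DMSO. All 160 lower genes were below IgG-IP in every such pair, with medians of -3.74 and -3.27 against -2.97 in DMSO. Of all genes, 39.2% were below in both olaparib pairs and 29.9% in both gemcitabine pairs. Since the spread is shared, genes with scattered drug arrays were less likely to be called, so this agreement is no independent support. Of the 599 genes higher in DMSO at the unadjusted p, 84.1% were above IgG-IP in both olaparib pairs and 78.3% in both gemcitabine pairs, against 28.3% and 23.6% of all genes. TMED4 had a log2 ratio of 5.70 with olaparib and 4.40 with gemcitabine beside 4.78 in DMSO. COX6C had -5.22 and -5.52 beside -4.56.

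A test of the difference itself found 0 of 33458 genes whose HuR-IP to IgG-IP difference in DMSO departed from that in olaparib or in gemcitabine at an adjusted p under 0.05 (limma). At an unadjusted p under 0.05, 886 genes (2.65%) departed from olaparib and 506 (1.51%) from gemcitabine. Both shares were smaller than such a threshold passes when nothing differs. The largest departures from olaparib were in RMRP, the RNA of a ribonuclease, by 5.03 (SE 1.96, adjusted p = 1.00), TUBG2, a gamma-tubulin, by 4.03, CTSD, a lysosomal protease, by 3.95, and NPIPA1, of a recently duplicated family, by 3.67. For CTSD the DMSO differences were -2.94 and 0.77 by array number, beside -5.75 and -4.32 in olaparib. For RMRP they were -0.42 and 1.75, beside -3.53 and -5.20. In these 4 genes the DMSO pairs disagreed in sign. Against gemcitabine the largest were MIR3143, MIR4737, MIR4528 and HTR1D, a serotonin receptor, by 2.64, 2.37, 2.33 and -2.29. With 2 arrays a group, the SE of such a difference, 1.12 for BARD1 and 1.96 for RMRP, sets how large a departure could have been seen. For BARD1 the departure was -2.57 from olaparib (unadjusted p = 0.0488, adjusted p = 1.00, limma).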

How the data were processed

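MiaPaCa-2 cytoplasmic RNA from HuR-IP and IgG-IP was labelled with the WT Pico kit and hybridized to 12 Clariom D arrays. The authors preprocessed the arrays in Affymetrix Expression Console 1.4, where the submitters' processing notes name RMA, and deposited log2 signals, which were used as given. RMA scales arrays to a common distribution, so a shift shared by most RNAs of an IP is removed. The array's genome build is not given in the sources used here. Of 138745 features, 2995 were controls and 135750 transcript clusters. Of these, 36176 had 1 symbol, 1119 several and 98455 none in the annotation table. Symbols, gene types and spans came from RefSeq GRCh38.p14, by gene ID (25516 clusters), symbol (9899) or older symbol (623), and 138 kept their name.

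Differences were estimated by limma 3.58.1 under R 4.3.3, from a linear model of 6 groups over 12 arrays (also used were Python 3.11.15, pandas 2.3.3, numpy 2.4.6 and the R package data.table, version 1.17.8). There were 6 residual degrees of freedom and 2.42 from the prior, and p-values were adjusted by Benjamini-Hochberg over 33458 genes. P-values measure the spread between arrays, 2 a group, and that number limits the precision. That spread is pooled over the 6 groups, as if all varied alike. On the first principal component HuR-IP in DMSO lay at -107 and 27.6 and IgG-IP at 80.3 and 73.5. The pooled value may therefore understate the spread of HuR-IP in DMSO. No pair of arrays held the same values. The labels give each group the numbers 1 and 2 without naming a shared preparation. Departures of same-numbered arrays from the mean of each group correlated across genes at 0.154 to 0.807 over all 15 pairs of groups (0.204 for HuR-IP and IgG-IP in DMSO), and the second principal component was above 0 for every array numbered 1 and below 0 for every array numbered 2. A model with the number as a block was therefore run beside the one without it. Tested on simulated data of 33458 genes, the DMSO comparison recovered 0% of 50 genes changed by 1 log2 unit, 42% by 2, 76% by 3 and 72% by 4.

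Named were all genes higher at the adjusted p, the 10 highest at the unadjusted p (mean signal above 6, both HuR-IP arrays above both IgG-IP arrays), the 12 lowest protein-coding and 6 lowest noncoding genes at the adjusted p, 8 protein-coding genes each way with the largest smaller same-numbered difference, up to 4 members a list by the moderated statistic, ELAVL1, BARD1, and the 4 largest departures from each drug. Other genes were chosen after their values were seen: RAB13, RN7SL2, VEGFA, XRCC2, H4C1, EPCAM, HBB, and the microRNA loci and their host genes, by a mean signal above 6 and an unadjusted p under 0.05. The members and lists were chosen with earlier results of these data known. Alternatives were other normalizations, filters, priors, a block, single arrays left out and crossed array numbers. The methods' selection by a mean ratio of HuR-IP to IgG-IP was not used.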

Additional observations from a re-analysis of the deposited data

Results flagged for a closer look

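Clusters that carry no gene name here, which the comparison of genes did not use, were fitted as well. With all 135750 clusters in the limma model, 2201 of 98455 unnamed clusters were higher in DMSO HuR-IP at an unadjusted p under 0.05. Lower were 2750, and both counts together are about the share such a threshold passes when nothing differs. At an adjusted p under 0.05, HuR-IP exceeded IgG-IP in 1 unnamed cluster and fell short of it in 53. Both shares were smaller than the 0.0209% and 0.478% of named genes in their own fit. The higher cluster, TC1400007205.hg.1, had log2 signals of 6.55 and 5.94 in HuR-IP against 4.17 and 4.42 in IgG-IP, a log2 ratio of 1.96 (SE 0.28, adjusted p = 0.0367). The lowest of the others, TC0100010704.hg.1, had 10.88 and 8.52 in HuR-IP against 14.38 and 14.48 in IgG-IP, a log2 ratio of -4.73 (adjusted p = 0.0383).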

How the results depend on the processing

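The 167 calls kept their direction in every fit that held them, but not their side of the threshold. The reported counts were 7 genes higher and 160 lower, with 17 ribosomal protein and 17 respiratory chain genes among the lower. They were 0, 0, 0 and 0 with only the 4 DMSO arrays in the model (443 higher and 1775 lower at the unadjusted p) and when limma's prior was trended and robust (558 and 1718). With cyclic loess 14 were higher and 96 lower (1235 and 1480 at the unadjusted p), 11 of them ribosomal, with quantile normalization 12 were higher, and with arrays centred on brighter genes 3 were higher and 94 lower, 11 of them ribosomal. The median of all genes was -0.09 as deposited, 0.02 with loess and 0.11 when centred. With a mean signal above 5, 3 were higher, and with protein-coding genes alone 51 were lower. At the unadjusted p, 599 were higher and 1932 lower, with 44 ribosomal and 52 respiratory chain genes. Leaving out 1 DMSO array gave 0 higher, 0 to 21 lower, 0 to 4 ribosomal and 0 to 3 respiratory chain genes, where a lone array was assumed to vary like the other groups. Without replicate 2 of HuR-IP in DMSO and gemcitabine, arrays left out after their values were seen, 595 were higher and 451 lower, with 31 ribosomal genes, and 143 of the 167 calls remained.

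The replicate number as a block gave 85 higher and 395 lower, with 27 respiratory chain genes, and kept all 167 calls. With crossed numbers, 283 genes were over 1 unit higher and 1145 over 1 unit lower in both, against 677 and 1050 with the same numbers. The counts of 0 against each drug stayed 0 under the block, the other prior, loess and each array left out. Signals near the top of the arrays and within the negative controls limit the size of the differences there.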
